A study of Mus musculus with 6 samples.

Results

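The transcripts described here encode the inhibitors of cyclin-dependent kinases (CDKs) of the Ink4 family, Cdkn2a, Cdkn2b, Cdkn2c and Cdkn2d, and of the Kip family, Cdkn1b and Cdkn1c. They were taken by symbol from a table of 27179 genes, in which each of the 6 had a single row. RNA was sequenced from mouse embryonic fibroblasts of genotype Cas9+;E1A;HrasG12V, which carry the nuclease Cas9, the adenoviral oncogene E1A and an activated Hras oncogene. All 6 libraries share this genotype, so the controls carried both oncogenes and the nuclease too. The Zmat3 knockout group consisted of 3 libraries, whose cells had received by lentivirus the guides sgZmat3 52.6 (library 1), sgZmat3 51.5 (library 2) and sgZmat3 54.8 (library 3). The control group consisted of 3 libraries with the negative control guides EV (library 1), SPA (library 2) and ACOCA (library 3). RNA was taken 10 days after selection, from populations of selected cells rather than from single clones as far as the labels say. The comparison asks which transcripts differ once Zmat3 has been targeted, a gene that p53 induces and whose product binds RNA through zinc fingers.

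Ink4 proteins are built from ankyrin repeats and bind Cdk4 and Cdk6, which keeps D-type cyclins from activating these kinases. Kip proteins bind cyclin-CDK complexes more widely and inhibit those of Cdk2. Both act upstream of the retinoblastoma protein, which holds back E2F transcription factors until CDKs phosphorylate it. The Cdkn2a and Cdkn2b locus is known for being switched on in cultured mouse fibroblasts by serial passage and by oncogenic Ras, while E1A binds the retinoblastoma family directly.

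Libraries held 53253055 to 90256118 reads assigned to genes, and values are normalised counts, that is, reads divided by a size factor per library. The Zmat3 transcript stood at 11421, 4912 and 4960 normalised counts in knockout libraries 1, 2 and 3, and at 17169, 15868.5 and 17434 in control libraries 1, 2 and 3. Every knockout library lay below every control library, and knockout library 1 kept 67.9% of the control mean. DESeq2 called Zmat3 lower (adjusted p = 0.0441) and limma did not (adjusted p = 0.371). Of 10 fibroblast markers 7 passed the filter on low values described below. Vim (150396 to 195037 over the 6 libraries), Fn1 (46319 to 87778) and Pdgfrb (1407 to 4650) were abundant, whereas Lum was at 0 throughout, Col1a2 did not exceed 14.2 and Thy1 did not exceed 5.42. The list summed to 232311 to 261068 in knockout and 218292 to 243470 in control, most of it Vim. Control library 3 was lowest for 6 of the 7 that passed and highest for Vim. Of 6 epithelial markers 3 passed, summing to 20372 to 25394 in knockout and 12408 to 29600 in control, and Krt5 was at 0. Epcam stood at 19711 to 25182 in knockout and 3574 to 24986 in control, lowest in control library 3, while Krt18 stood at 91.3 to 452 in knockout and 107 to 8675 in control, highest in control library 3. Of 6 leukocyte markers Cd68 alone passed, and the list summed to 7163 to 9239 in knockout and 817 to 6052 in control. Of 4 endothelial markers 2 passed, summing to 477 to 720 in knockout and 181 to 636 in control. Of 6 proliferation markers 5 were lower in knockout without overlap, against 14.4% of all genes tested, and the list summed to 83791 to 93186 in knockout and 114736 to 148719 in control.

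All 6 CDK inhibitor transcripts had a higher mean in Zmat3 knockout libraries than in control libraries, by 1.23-fold (Cdkn1b) to 1.81-fold (Cdkn1c), and none passed the test. Fold changes were tested with limma on log2(value + 1) over the 14777 genes that passed a filter on low values, which all 6 passed, with p-values adjusted by the Benjamini-Hochberg method and a threshold of 0.05. The adjusted p of the inhibitors lay between 0.371 and 0.374, and limma called 0% of all genes, with a smallest adjusted p of 0.331. For 2 of the 6 the unadjusted limma p was under 0.05, against 13.2% of all genes tested. In 4 of the 6, Cdkn2b, Cdkn2c, Cdkn2d and Cdkn1b, every knockout library exceeded every control library, against 13.2% of all genes tested. Groups of 3 cannot give an exact two-sided permutation p below 0.1. Groups without overlap always give that value, so for these 4 genes it only restates the lack of overlap. The median log2 fold change of the 6 was 0.57, beside 0.01 for all genes tested, and all 6 were positive, as were 51.6% of all genes. In bulk RNA a change in the share of cells with a transcript and a change in RNA per cell cannot be told apart. The proliferation list was lower and the leukocyte list, carried by Cd68, higher in every knockout library beside these differences, and their part in the result was not tested.

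**Figure D1:**
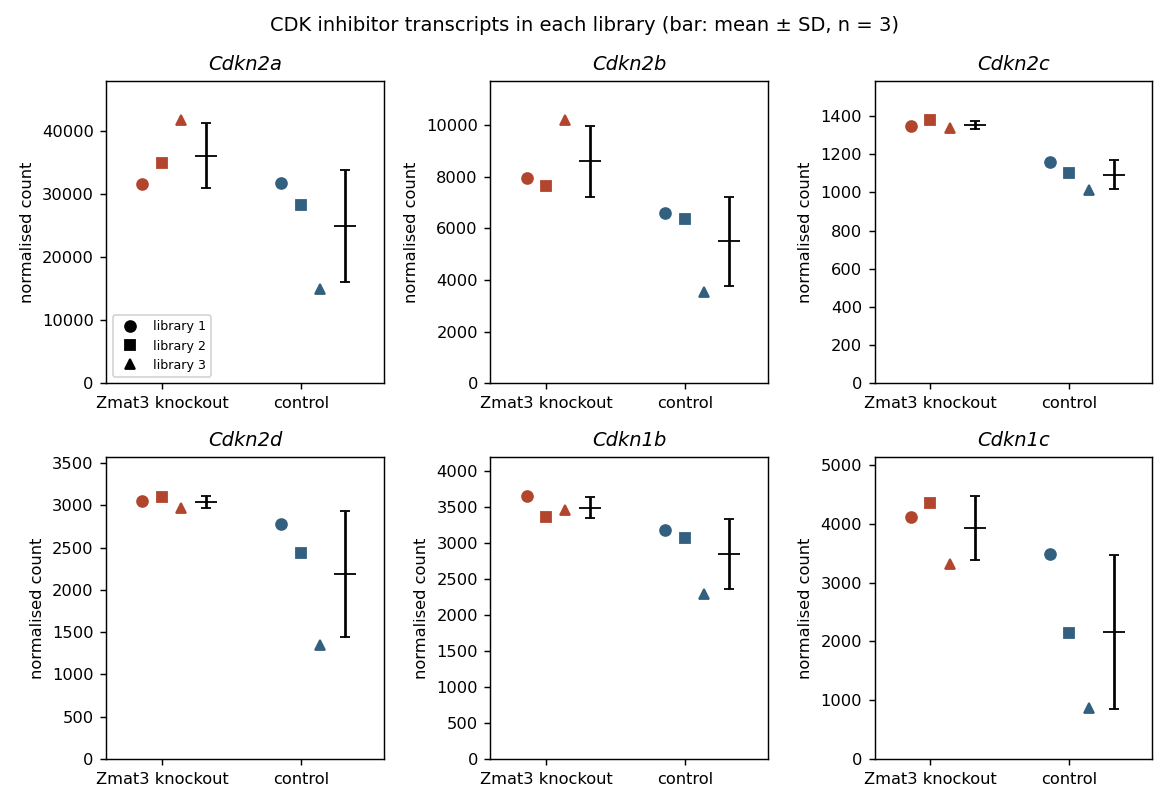
Normalised counts of the 6 CDK inhibitor genes (vertical axes, from 0) in the 3 Zmat3 knockout libraries (left of each panel) and the 3 control libraries (right), with symbols for libraries 1, 2 and 3 and a bar for mean ± SD (n = 3). Control library 3 is the lowest point in each panel, and Cdkn2a and Cdkn1c are the genes whose groups overlap.

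Cdkn2a encodes p16Ink4a, an inhibitor of Cdk4 and Cdk6, and from a start of its own p19Arf, which restrains Mdm2 and so stabilises p53. It stood at 31594, 35044 and 41727 normalised counts in knockout libraries 1, 2 and 3, and at 31739, 28252 and 14932 in control libraries 1, 2 and 3. Knockout library 1 lay just under control library 1, so the groups overlapped, and control library 3 was far below the other 5. The means were 36122 ± 5151 in knockout and 24974 ± 8870 in control (SD, n = 3 each), a log2 fold change of 0.60 (SE 0.29) whose unadjusted 95% interval ran from -0.10 to 1.29. The limma adjusted p was 0.373, and an exact two-sided permutation test gave p = 0.2. With control library 3 left out, limma gave 0.26 (adjusted p = 0.412).

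Cdkn2b encodes p15Ink4b, an inhibitor of Cdk4 and Cdk6 that TGF-beta is known to induce. Its levels were 7960, 7635 and 10184 normalised counts in knockout libraries 1, 2 and 3, and 6597, 6369 and 3525 in control libraries 1, 2 and 3. The groups did not overlap, and knockout library 3 was highest, as it was for Cdkn2a. The means were 8593 ± 1387 in knockout and 5497 ± 1712 in control (SD, n = 3 each). This is a log2 fold change of 0.69 (SE 0.26), with an unadjusted interval from 0.06 to 1.32, a limma adjusted p of 0.371 and an exact permutation p of 0.1. Against control libraries 1 and 2 alone it was 0.39 (limma adjusted p = 0.293).

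Cdkn2a and Cdkn2b are minus-strand neighbours on chromosome 4 (GRCm38). GENCODE M21 places Cdkn2a from 89274471 to 89294653 and Cdkn2b from 89306299 to 89311039, with 11645 bases between them. The ratio of Cdkn2a to Cdkn2b counts was 3.97, 4.59 and 4.10 in knockout libraries 1, 2 and 3, and 4.81, 4.44 and 4.24 in control libraries 1, 2 and 3. The ranges overlapped, while Cdkn2a itself differed up to 2.13-fold among control libraries. The longest identical run between their transcripts was 23 bases, the longest among all pairs of the 6 genes. Mtap, the neighbouring gene for an enzyme of methionine salvage, did not share this pattern: it stood at 7753, 8786 and 9174 in knockout libraries 1, 2 and 3, and at 8864, 10944 and 14745 in control libraries 1, 2 and 3. Its highest value was thus in control library 3, where the inhibitors were lowest.

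The annotation gives Cdkn2a 2 transcripts whose starts lie 12461 bases apart, of 852 and 895 bases, of which 575 bases are common to both. The deposited table has a single row for the gene, so its counts sum p16Ink4a and p19Arf messages and do not resolve them. The start regions of this locus are shown because the row sums transcripts from both Cdkn2a starts. Each is a RefSeq window of GRCm38.p6 from 250 bases before to 50 bases after the start, printed 5′ to 3′ on the minus strand. Capitals mark matches, on either strand, to an E2F motif (TTTCCCGC, TTTCGCGC, TTTGCCGC or TTTGGCGC), a GC box (GGGCGG) or a cyclic AMP response element (TGACGTCA). The windows are chr4:89294570-89294869 for the upstream start of Cdkn2a, chr4:89282143-89282442 for the downstream start of Cdkn2a and chr4:89310983-89311282 for Cdkn2b.
Cdkn2a, upstream start (p19Arf): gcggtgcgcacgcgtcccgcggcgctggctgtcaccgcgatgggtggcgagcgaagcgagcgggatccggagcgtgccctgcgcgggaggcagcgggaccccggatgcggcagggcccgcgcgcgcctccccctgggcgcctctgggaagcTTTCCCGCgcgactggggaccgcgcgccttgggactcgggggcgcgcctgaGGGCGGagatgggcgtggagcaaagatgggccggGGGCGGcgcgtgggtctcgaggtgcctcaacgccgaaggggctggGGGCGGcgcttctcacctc
Cdkn2a, downstream start (p16Ink4a): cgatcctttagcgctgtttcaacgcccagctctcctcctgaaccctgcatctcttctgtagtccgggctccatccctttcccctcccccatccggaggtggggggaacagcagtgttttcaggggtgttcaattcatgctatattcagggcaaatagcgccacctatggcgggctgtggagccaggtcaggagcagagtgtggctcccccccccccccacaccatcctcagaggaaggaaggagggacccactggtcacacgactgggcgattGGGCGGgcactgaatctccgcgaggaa
Cdkn2b: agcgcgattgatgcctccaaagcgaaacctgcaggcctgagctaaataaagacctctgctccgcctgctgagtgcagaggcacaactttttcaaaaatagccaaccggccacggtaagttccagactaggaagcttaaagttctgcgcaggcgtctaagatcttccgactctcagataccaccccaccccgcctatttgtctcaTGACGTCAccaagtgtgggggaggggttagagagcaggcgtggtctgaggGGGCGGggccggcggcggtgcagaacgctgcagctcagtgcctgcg

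The 2 start regions of Cdkn2a differ in composition. The upstream window is 77.0% G and C and holds an E2F motif 99 bases before the start with 3 GC boxes, whereas the downstream window is 60.3% G and C and holds a single GC box. The Cdkn2b window is 57.7% G and C, with a GC box and a cyclic AMP response element. Among 32851 RefSeq windows of the same length, 2.26% hold an E2F motif of these spellings, 35.7% a GC box and 1.79% the response element, and the median share of G and C is 52.7%. RefSeq windows were found for 5 of the 6 inhibitors, 7 windows in all, and not for Cdkn1c. The upstream Cdkn2a window was the only 1 of the 7 with an E2F match, and 6 of the 7 held a GC box, the exception being the downstream start of Cdkn2c. Neither an AP-1 motif (TGANTCA, in 7.81% of all windows) nor a forkhead motif (TGTTTAC, in 3.65%) occurred in these 7, and the motifs found do not overlap in the windows printed. A match describes letters in a window and was not tested as a site.

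Cdkn2c encodes p18Ink4c. It had 1348, 1377 and 1338 normalised counts in knockout libraries 1, 2 and 3, and 1162, 1103 and 1011 in control libraries 1, 2 and 3. Its groups did not overlap and both were tight, with a coefficient of variation of 1.49% in knockout and 6.95% in control. The means were 1354 ± 20.2 in knockout and 1092 ± 75.9 in control (SD, n = 3 each), the difference being several times either SD. This is a log2 fold change of 0.31 (SE 0.13), with an unadjusted interval from 0.0015 to 0.62 and a limma adjusted p of 0.371. It moved least when control library 3 was left out, to 0.26 (limma adjusted p = 0.342). Cdkn2c lies at 109660876 to 109667189 on chromosome 4, 20349836 bases from Cdkn2b.

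Cdkn2d encodes p19Ink4d, which is distinct from p19Arf. Counts were 3045, 3103 and 2962 in knockout libraries 1, 2 and 3, and 2778, 2431 and 1350 in control libraries 1, 2 and 3. The knockout libraries were nearly level, with a coefficient of variation of 2.33%, while the control libraries spread over a 2.06-fold range and lay below all of them. The means were 3037 ± 70.7 in knockout and 2186 ± 745 in control (SD, n = 3 each). On the log2 scale knockout was 0.54 (SE 0.27) above control, with an unadjusted interval from -0.10 to 1.18 and a limma adjusted p of 0.374. Leaving out control library 3 gave 0.22 (limma adjusted p = 0.359). Cdkn2d is on chromosome 9 (minus strand), at 21288410 to 21291407.

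Cdkn1b encodes p27Kip1, whose protein level is known to be set largely by ubiquitin-mediated turnover. Its transcript stood at 3653, 3366 and 3458 normalised counts in knockout libraries 1, 2 and 3, and at 3185, 3066 and 2294 in control libraries 1, 2 and 3. The groups did not overlap, though knockout library 2 and control library 1 were close. The means were 3492 ± 146 in knockout and 2848 ± 484 in control (SD, n = 3 each). The log2 fold change of 0.31 (SE 0.15), with an unadjusted interval from -0.06 to 0.67 and a limma adjusted p of 0.374, was the smallest of the 6 together with that of Cdkn2c. Without control library 3 it was 0.16 (limma adjusted p = 0.437). Cdkn1b is on chromosome 6 (plus strand), at 134920401 to 134925513.

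Cdkn1c encodes p57Kip2, the product of an imprinted gene that is expressed from the maternal copy. It varied most, with 4113, 4359 and 3319 normalised counts in knockout libraries 1, 2 and 3, and 3492, 2142 and 863 in control libraries 1, 2 and 3. Control library 1 exceeded knockout library 3, so the groups overlapped, and the control libraries spanned a 4.05-fold range. The means were 3930 ± 544 in knockout and 2165 ± 1315 in control (SD, n = 3 each). The log2 fold change of 1.07 (SE 0.48), with an unadjusted interval from -0.07 to 2.20, a limma adjusted p of 0.371 and an exact permutation p of 0.2, was the largest of the 6. Without control library 3 it was 0.51 (limma adjusted p = 0.351), and without control library 1 it was 1.52. DESeq2 without control library 1 called Cdkn1c higher (log2 fold change 1.39, adjusted p = 0.00604), in a fit that called 2142 of 14337 genes tested. The ratio of Cdkn1c to Cdkn1b counts was 1.13, 1.30 and 0.96 in knockout libraries 1, 2 and 3, and 1.10, 0.70 and 0.38 in control libraries 1, 2 and 3, lowest in control library 3. Cdkn1c is on chromosome 7 (minus strand), at 143458339 to 143461050, and is overlapped by the antisense gene Gm44732, whose reads could not be told apart from its own because the strand setting of the counting is not given.

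The imprinted neighbours of Cdkn1c on chromosome 7 were mostly low. H19, a noncoding RNA of the adjoining imprinted domain, stood at 499, 444 and 188 in knockout libraries 1, 2 and 3, and at 248, 198 and 42.5 in control libraries 1, 2 and 3. As for Cdkn1c, control library 3 was lowest and the groups overlapped, but H19 was the only 1 of the 8 neighbours described below that was lowest there. Igf2 had 17.4 ± 8.8 in knockout and 13.0 ± 4.6 in control, and Kcnq1ot1, the antisense RNA of the domain, 112.5 ± 31.2 in knockout and 126.3 ± 76.8 in control (SD, n = 3 each). Kcnq1ot1 was highest in control library 3, at 214.8. Of 8 neighbours of the Cdkn2a and Cdkn1c loci tested, Mtap among them, 5 had positive and 3 negative log2 fold changes, and the groups of all 8 overlapped, as did those of most genes (27.5% of all genes tested had no overlap in either direction).

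Levels of different genes were compared per kilobase of the longest annotated transcript. In knockout libraries Cdkn2a stood at 40360 ± 5756 normalised counts per kb, Cdkn2b at 6182 ± 998, Cdkn2d at 2134 ± 49.7, Cdkn1c at 2067 ± 286, Cdkn1b at 767 ± 32.1 and Cdkn2c at 548 ± 8.2 (SD, n = 3 each). In control libraries the levels per kb were 27904 ± 9911 for Cdkn2a, 3954 ± 1231 for Cdkn2b, 1536 ± 523 for Cdkn2d, 1139 ± 692 for Cdkn1c, 626 ± 106 for Cdkn1b and 442 ± 30.7 for Cdkn2c (SD, n = 3 each). The order was the same in both groups and Cdkn2a led it. The ranges of Cdkn2d and Cdkn1c overlapped in both groups. Within each control library Cdkn2d stood above Cdkn1c, while in knockout libraries their order varied and they cannot be ranked. In control libraries the range of Cdkn1c also took in Cdkn1b and reached Cdkn2c, though within each library Cdkn1c stood above Cdkn2c. With the union of exons as length, Cdkn2a came to 30821 per kb in knockout and 21309 per kb in control, still the highest.

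**Figure D2:**
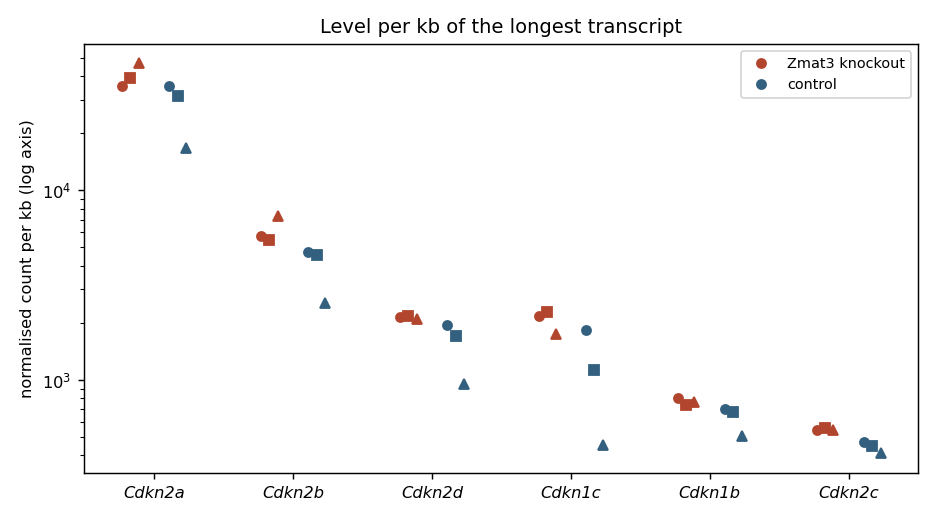
Normalised counts per kb of the longest annotated transcript (log axis) for each library, with Zmat3 knockout left of control for each gene and circles, squares and triangles for libraries 1, 2 and 3. Cdkn2a stands above the other 5 genes in every library, and Cdkn2d and Cdkn1c overlap.

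Control library 3 had the lowest value of all 6 inhibitors, as it had for 36.6% of all genes tested. Relative to the mean of control libraries 1 and 2 it held 49.8% of Cdkn2a, 54.4% of Cdkn2b, 51.8% of Cdkn2d and 30.6% of Cdkn1c, but 73.4% of Cdkn1b and 89.3% of Cdkn2c. Against control libraries 1 and 2 alone, the knockout means were 1.12-fold (Cdkn1b) to 1.40-fold (Cdkn1c) as high. The same 4 genes stayed above both of these control libraries in every knockout library, as did 17.4% of all genes tested. Without control library 3 the 6 log2 fold changes remained positive, against 50.7% of all genes, with a median of 0.26 in place of 0.57. For 2 of the 6, Cdkn2b and Cdkn2c, the unadjusted limma p was then under 0.05, against 14.4% of all genes. Neither limma, which then called 0.0338% of genes, nor DESeq2, which called 5.62%, called any inhibitor. The part of this library in the differences was otherwise not tested.

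**Figure D3:**
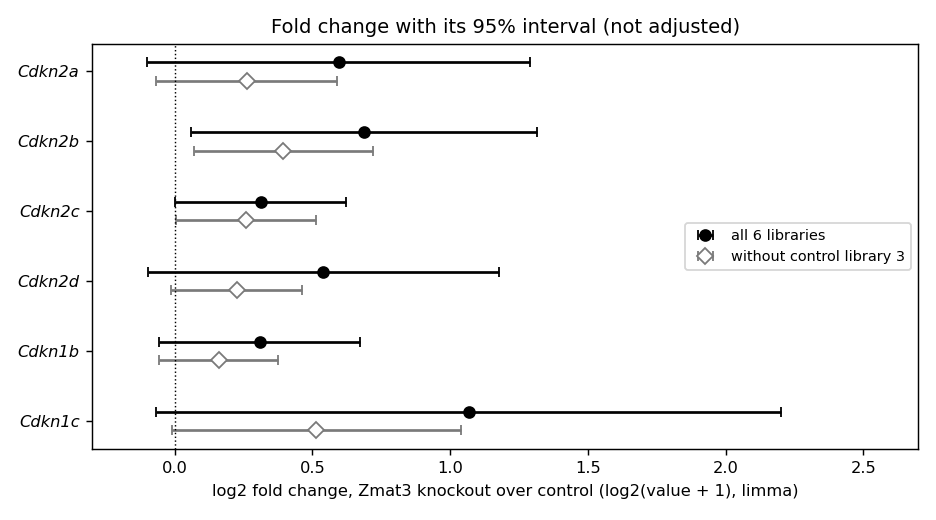
Log2 fold changes of the 6 inhibitor genes, Zmat3 knockout over control, with unadjusted 95% limma intervals, from all 6 libraries (filled circles) and without control library 3 (open diamonds). All points lie above 0, and the fold changes without control library 3 run from 0.16 to 0.51.

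Among the 3 knockout libraries the inhibitors had no common order. As a median over the 6 genes, knockout libraries 1, 2 and 3 lay 0.48, 0.55 and 0.66 above the control mean on the log2 scale, while retaining 67.9%, 29.2% and 29.5% of the Zmat3 transcript. Knockout library 1 was lowest of the 3 for Cdkn2a, yet highest for Cdkn1b. Knockout library 3 was highest for Cdkn2a and Cdkn2b and lowest for Cdkn2c, Cdkn2d and Cdkn1c. In control libraries 1, 2 and 3 the median over the 6 genes was 0.36, 0.21 and -0.61 on the same scale.

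On reads recovered from the values, edgeR called 0% of genes, and DESeq2 0.904%, with none of the 6 inhibitors among them. The smallest DESeq2 adjusted p of the 6 was 0.245, for Cdkn2b. The unadjusted edgeR p was under 0.05 for 1 of the 6 inhibitors, Cdkn2b, against 13.4% of all genes tested. The recovered reads ran from 731 to 39996 per inhibitor and library.

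For each inhibitor the most similar profiles were sought among 13024 other genes with a mean of at least 50 normalised counts, by the root mean square difference in log2 deviation from the control mean over the 6 libraries. Nearest were Rdh5 (0.055) and Pam (0.057) for Cdkn2a, and Dand5 (0.045) and Cav2 (0.070) for Cdkn2b. Cdkn2b itself came 30th for Cdkn2a, at 0.106, and Cdkn2a came 12th for Cdkn2b. Nearest to Cdkn2c were Timm17b (0.019) and Pxmp4 (0.020), to Cdkn2d Frs3 (0.031) and Pxk (0.046), and to Cdkn1b Pgap2 (0.017) and Snx13 (0.024). For Cdkn1c the differences were larger, with Smagp at 0.075 and Camk2n1 at 0.117, and its nearest fellow inhibitor, Cdkn2d, lay at 0.479. This measure is not scaled to the spread of a gene, which was widest in Cdkn1c. The larger differences therefore do not show that its pattern was less shared.

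In 4 lists of other pathway genes negative log2 fold changes outnumbered positive ones, by a wide margin only in the retinoblastoma and E2F list and the p27Kip1 list. No gene of these lists was called by limma, edgeR or DESeq2 over all 6 libraries. Of all genes tested, 51.6% had a positive log2 fold change. Among 16 tested genes for cyclins, CDKs, their activators and the further inhibitor Cdkn1a, 7 stood higher in knockout and 9 lower, with a median log2 fold change of -0.19. In 5 of these every knockout library lay below every control library, against 14.4% of all genes tested, and in 1, Mnat1 of the CDK-activating kinase, every knockout library lay above. Cdk4, the main Ink4 target, stood at 28340 ± 4315 in knockout and 37567 ± 9109 in control, and Cdk6 at 1172 ± 161 in knockout and 1126 ± 112 in control (SD, n = 3 each). Ccna2, the S-phase cyclin, had 5837, 5959 and 5648 in knockout libraries 1, 2 and 3, and 7145, 8615 and 18994 in control libraries 1, 2 and 3, the reverse of the inhibitors' order in control library 3. Cdkn1a, the p53-induced inhibitor of the same family as Cdkn1b, had 79035 ± 6566 in knockout and 71189 ± 10804 in control, with a log2 fold change of 0.16 (SE 0.15).

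Of 15 retinoblastoma and E2F genes, 4 were positive and 11 negative, where 51.6% of all genes tested were positive, with a median of -0.19. In this list 7 were lower without overlap, against 14.4% of all genes tested. Rb1, the exception that was higher without overlap, had 4155 ± 357 in knockout and 3415 ± 366 in control, while E2f7, a repressor of the family, had 3459 ± 409 in knockout and 5415 ± 1182 in control (SD, n = 3 each). Of 14 genes that control p27Kip1 turnover or transcription, 2 were positive and 12 negative, with a median of -0.20, and 7 were lower without overlap, again against 14.4% of all genes tested. Skp2, the ubiquitin ligase subunit that recognises p27Kip1, had 5123 ± 501 in knockout and 7422 ± 1440 in control, and its cofactor Cks1b had 7574 ± 322 in knockout and 10433 ± 3126 in control (SD, n = 3 each). With control library 3 left out, the limma log2 fold change of Skp2 went from -0.52 to -0.38 and that of Cks1b from -0.42 to -0.19. Of 20 regulators and partners of the Ink4 locus, 9 were positive and 11 negative, near the share of all genes tested, with a median of -0.02. Without overlap, 2 were higher (Id1 and Dmtf1, against 13.2% of all genes tested) and 2 lower (Suz12 and Ets1, against 14.4%). Of the Polycomb genes, which repress the locus, Bmi1, Ezh2, Eed, Ring1, Rnf2 and Cbx7 overlapped between groups. Suz12 did not, with 18316 ± 311 in knockout and 20563 ± 1486 in control (SD, n = 3 each). Log2 fold changes were negative for Suz12 (-0.16), Bmi1 (-0.21), Ezh2 (-0.25), Eed (-0.20) and Ring1 (-0.04). They were positive for Cbx7 (0.49) and Rnf2 (0.06). Suz12, Eed, Ring1, Rnf2 and Cbx7 are given here after their values were seen. Bmi1 had 6218 ± 399 in knockout and 7224 ± 921 in control, and Ezh2 had 10074 ± 1401 in knockout and 11875 ± 633 in control (SD, n = 3 each). Without control library 3 the list medians were -0.15 for cyclins and CDKs, -0.18 for retinoblastoma and E2F genes, -0.11 for p27Kip1 and -0.07 for Ink4 regulators. DESeq2 then called Id1 higher and Ccna2, E2f7 and E2f4 lower, and none of the other genes in these lists. That fit called 5.62% of all genes tested, so these calls are not read as a result about the lists. Proliferation markers were lower in the same knockout libraries, as given above, and their part in the result was not tested.

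**Figure D4:**
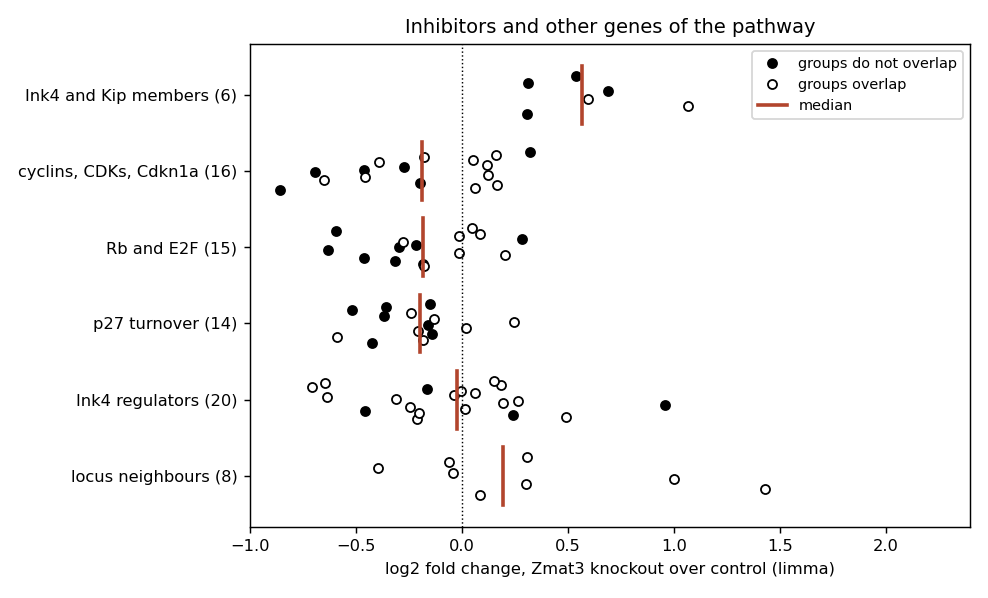
Limma log2 fold changes, Zmat3 knockout over control, of the 6 inhibitors and of the tested genes of 5 lists, with numbers of genes in parentheses. Filled points mark genes whose groups do not overlap and red lines the median, which is 0.57 for the inhibitors and between -0.20 and 0.19 for the lists.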

How the data were processed

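Total RNA of 6 fibroblast cultures was extracted with an RNeasy kit and sequenced with Illumina libraries, per the labels' protocols. STAR, DESeq2 and mm10 are named in the submitters' processing notes. No source used here gives the annotation, read counter, strand setting or versions. The authors deposited a normalised signal per gene, in effect counts scaled by a size factor of each library: 100% of values were whole multiples of the smallest value of their library (tolerance 0.001), so whole reads were recovered.

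Rows are keyed by Entrez number. All 112 list and marker genes were found, 2 of them (Cdk3 and Kcnq1ot1, listed without a name) by number in the RefSeq table of GRCm38.p6. The 6263 rows that lack a symbol, with 1.90% to 2.23% of reads, carry a gene number and stayed in the tests. Genes were kept with filterByExpr (minimum 10 in 3 libraries), leaving 14777. Limma 3.58.1 (trend, robust; R 4.3.3) compared knockout with control on log2(value + 1), two-sided, over all genes, a scale on which changes of low genes come out too small. The count tests, DESeq2 1.42.0 and edgeR 4.0.16, used recovered reads. Each test was tried on simulated counts at an adjusted p threshold of 0.05. Of the calls, 33.3% were false in DESeq2, 9.35% in limma and 7.14% in edgeR. These counts were drawn for each gene on its own, with changes planted in some genes and no shift of a whole library. In them limma called 107 genes and edgeR 98, whereas neither called any in the data over all 6 libraries. The shares may therefore not hold for these data, and single DESeq2 calls given here are to be read with caution. Every library had its own guide, and the labels do not say whether cultures were separate before infection, so p-values measure the spread between these libraries. All pairs of libraries differed by more than sampling noise, with a chi-square of at least 18.4 per degree of freedom. Pairs with control library 3 differed most, at 311 to 575 per degree of freedom. Pairs without it ran from 18.4 to 239.

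The inhibitors and gene lists were chosen with earlier results of these data known. Named pathway genes came from up to 6 smallest p-values per list and 14 preset genes; of these, those that a statement turns on are printed. Alternatives changed the test, scaling, filter, pseudocount, replicate block, transcript length and libraries used.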

Additional observations from a re-analysis of the deposited data

How the results depend on the processing

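The 6 inhibitors kept a positive log2 fold change under all 19 alternatives run for each. Their limma values with 1 library left out ran from 0.26 to 0.80 for Cdkn2a, 0.39 to 0.85 for Cdkn2b, 0.26 to 0.36 for Cdkn2c, 0.22 to 0.74 for Cdkn2d, 0.16 to 0.40 for Cdkn1b and 0.51 to 1.52 for Cdkn1c, lowest without control library 3 and highest without control library 1. The only call was Cdkn1c in DESeq2 without control library 1 (1.39, adjusted p = 0.00604, against up to 0.733 when other libraries were left out). There DESeq2 called 2142 of 14337 genes tested, and the cause was not tested. DESeq2 with 1 library left out gave 0.47 to 1.39 for Cdkn1c. Zmat3 passed DESeq2 over all libraries (-1.24, adjusted p = 0.0441), and, with 1 library left out, ran from -1.77 to -1.04, passing without knockout library 1 (-1.77) and without control library 1 (-1.23). The count of called genes was 130 in DESeq2, 61, 25 and 27 without knockout libraries 1, 2 and 3, and 2142, 87 and 720 without control libraries 1, 2 and 3 in DESeq2, and 0 to 5 in limma with 1 left out. Calls in the pathway lists with 1 library left out in DESeq2 ran from 0 to 3 for cyclins and CDKs, 0 to 2 for retinoblastoma and E2F genes, 0 to 2 for p27Kip1 turnover, 0 to 3 for Ink4 regulators and 0 to 1 for locus neighbours. These lists held 16, 15, 14, 20 and 8 tested genes. Each reached its highest count without control library 1, where DESeq2 called 2142 of 14337 genes tested. The retinoblastoma and E2F list did so without control library 3 too. Same-numbered libraries did not deviate together in every pair (r = 0.264, 0.198 and -0.017 for numbers 1, 2 and 3). Pairs with different numbers ran from -0.317 to 0.215, so the numbers do not mark clear pairs. With the number as a replicate block limma called 0 genes and gave Cdkn2b 0.69 (adjusted p = 0.303). The median log2 fold change of all genes was 0.0160 with TMM scaling and 0.0148 as deposited. With exon unions as length, levels per kb fell outside the SD for 4 of 12 values, in Cdkn2a, Cdkn2c and Cdkn2d, with the order as given.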
